A study of Mus musculus with 5 samples.

Results

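HOX genes are a family of homeobox transcription factors that lie in 4 clusters in the mouse genome, named HoxA to HoxD. All protein-coding rows of the expression table whose Ensembl identifier belongs to a gene named *Hoxa*, *Hoxb*, *Hoxc* or *Hoxd* plus a number were taken, which gave 39 of the 21835 genes listed and all 39 that the GENCODE M21 annotation of GRCm38 holds. HoxA had 11 members (chromosome 6), HoxB 10 (chromosome 11), HoxC 9 (chromosome 15) and HoxD 9 (chromosome 2). RNA came from murine lung cancer-associated fibroblasts (CAFs), the stromal cells of a tumor that make matrix and secrete growth factors. CAF-vec, with 2 samples, carried an empty lentiviral vector and is labelled wild-type control. CAF-200, with 3 samples, carried a lentivirus that overexpresses miR-200b, miR-200a and miR-429, encoded as 1 cluster, from a vector with neomycin resistance per the labels, whereas the study's methods describe a hygromycin vector. Cells were grown as transduced populations in 10% serum and selected with G418 per the labels. All 5 samples carry the cell line label CAF, and no label says that samples of a group came from separate cultures. The *p* values below therefore measure the spread between these samples, which may be technical.

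HOX proteins carry positional information along the head-to-tail axis of the embryo, and within each cluster the order of the genes follows the order of their expression along that axis. Genes at the 3′ end of a cluster (low paralog numbers) are used toward the head and early in development, and genes at the 5′ end (high paralog numbers) toward the tail. Adult fibroblasts keep much of the HOX pattern of the body site they came from, in part through Polycomb proteins that silence unused HOX genes and Trithorax proteins that keep used ones active. In the developing lung, HOX genes of middle paralog groups such as *Hoxa5* and *Hoxb5* act in the mesenchyme.

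The 3 overexpressed microRNAs are shown because the seed (bases 2 to 8 of the mature strand, in capitals) is the part that pairs with a target mRNA. miR-200b and miR-429 share 1 seed, and miR-200a has a seed that differs from it. The mature sequences are those of RefSeq for GRCm38.p6 and lie on the minus strand of chromosome 4, at chr4:156055685-156055706, chr4:156053916-156053937 and chr4:156054911-156054932 in the order printed.
mmu-miR-200b-3p: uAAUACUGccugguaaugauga
mmu-miR-429-3p: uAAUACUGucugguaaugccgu
mmu-miR-200a-3p: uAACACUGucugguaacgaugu

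The libraries held poly(A) mRNA, so the mature microRNAs themselves were not measured. *Zeb1*, a known miR-200 target, had 43.5 and 50.8 CPM in CAF-vec and 37.8, 37.5 and 34.1 CPM in CAF-200 (limma log2 fold-change -0.36, adjusted *p* = 0.0504), where CPM is the read count of a gene scaled to its library as the authors normalized it. A log2 fold-change is CAF-200 minus CAF-vec on the log2(CPM + 0.5) scale throughout, so values below 0 are lower in CAF-200, and adjusted *p* is adjusted over all genes tested. *Zeb2* overlapped between the groups (29.8 to 46.2 CPM and 31.1 to 31.9 CPM). Of 10 fibroblast markers, 9 passed the filter on low values and *Fap* did not exceed 0.391 CPM. *Acta2*, the smooth muscle actin of activated fibroblasts (limma log2 fold-change 2.63, adjusted *p* = 0.00123), and *Thy1* (limma log2 fold-change 1.46, adjusted *p* = 0.0029) were higher in CAF-200, while *Col1a1* had 4613 and 2003 CPM against 1719, 1599 and 1543 CPM (adjusted *p* = 0.0982), and their part in the HOX values was not tested. Of 8 epithelial markers none passed the filter, with sums of 0.0843 to 0.228 CPM in CAF-vec against 0.0646 to 0.452 CPM in CAF-200. *Krt18*, *Sftpc* and *Nkx2-1* were listed at 0 in every sample. Endothelial markers did not exceed 0.521 CPM, and among haematopoietic markers *Cd68* alone passed (2.25 to 5.01 CPM) while *Adgre1* and *Cd3e* were listed at 0 in every sample. The summed mesothelial markers were 5.92 to 6.98 CPM in CAF-vec against 1.11 to 1.62 CPM in CAF-200, nearly all of it *Msln* (log2 fold-change -1.97, SE 0.177, adjusted *p* = 0.0029, limma) with *Lrrn4* at 0, and its part in the HOX values was not tested. The 2 CAF-vec samples differed by more than 1 on the log2(CPM + 0.5) scale at 499 of 12175 tested genes (4.1%) and at 1 of 26 HOX genes, *Hoxb6*.

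HoxB genes held the highest HOX levels per exon length in these cells, and HoxD genes were listed at or near 0. To set genes side by side, CPM was divided by the length of each gene's merged exons in kilobases. In CAF-vec the highest levels were those of *Hoxb9* (31.8 CPM per kb), *Hoxb7* (29.7), *Hoxb8* (26.6) and *Hoxb6* (26.5), genes that mark the trunk. In CAF-200 *Hoxb9* (32.6 CPM per kb) and *Hoxb7* (29.7) still led, while *Hoxb8* stood at 13.7 and *Hoxb6* at 11.7. *Hoxb3*, *Hoxa5* and *Hoxc13* came next in both groups, at between 9.83 and 11.4 CPM per kb. *Hoxc13*, which is best known from hair follicles and nails, is of the most 5′ paralog group, so the pattern held both trunk-type and distal members. Across the 26 tested genes the order of levels was similar in the groups (Spearman's rho = 0.95, a description over genes that share libraries).

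**Figure D1:**
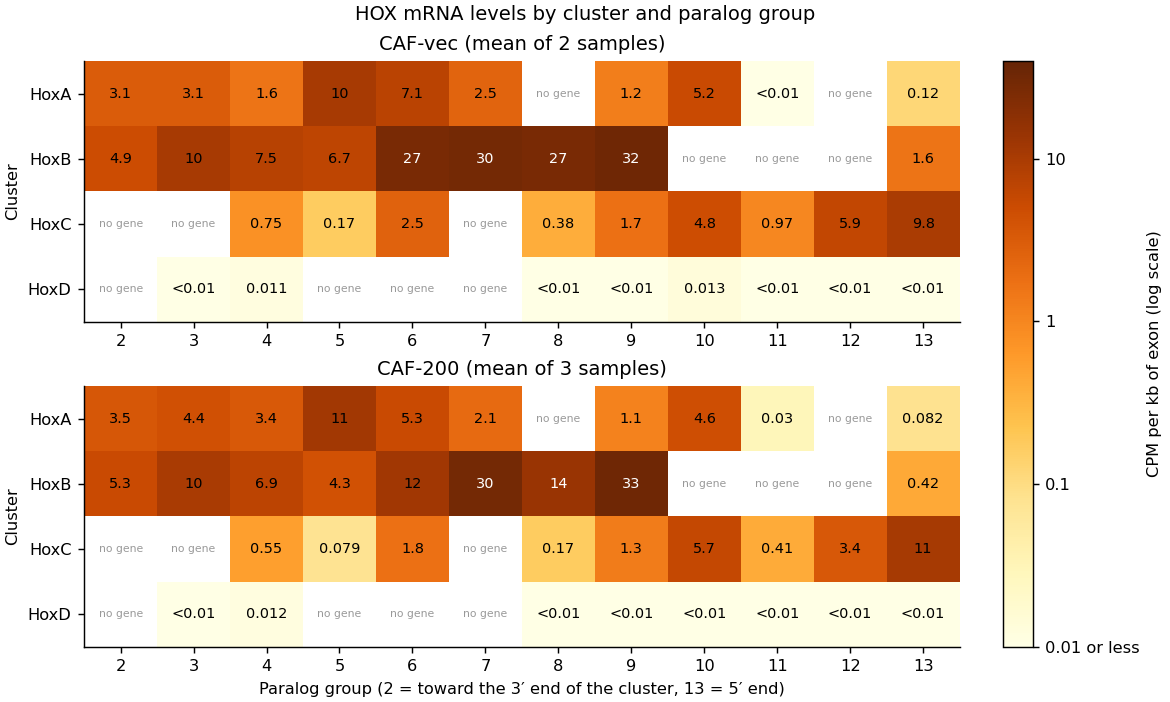
Mean HOX levels in CAF-vec (2 samples, upper panel) and CAF-200 (3 samples, lower panel), in CPM per kb of exon on a log color scale, by cluster (rows) and paralog groups 2 to 13 (columns). Cells marked "no gene" have no mouse member. *Hoxb6* to *Hoxb9* are the darkest cells of CAF-vec, at 26.5 to 31.8 CPM per kb, and no HoxD gene exceeded 0.0674 CPM in any sample.

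The HoxB genes gave sums of 363.3 and 342.2 CPM for CAF-vec against 284.0, 271.0 and 286.1 CPM for CAF-200. The groups did not overlap, with means of 352.7 ± 14.9 (SD, n = 2) and 280.4 ± 8.24 (SD, n = 3) CPM. *Hoxb8* (means of 70.0 and 36.1 CPM) and *Hoxb6* (52.1 and 23.0 CPM) held most of this gap. *Hoxb6* had 71.0 and 33.2 CPM in the 2 CAF-vec samples. The median log2 fold-change of the 9 tested HoxB genes was -0.11, near the -0.09 of all tested genes. HoxA summed to 82.1 and 94.9 CPM in CAF-vec and 99.6, 87.8 and 102.8 CPM in CAF-200, which overlapped. HoxC sums also overlapped, at 52.4 and 58.2 CPM in CAF-vec against 52.7, 50.6 and 51.2 CPM in CAF-200. Of all HOX CPM, not corrected for length, HoxB held 71.0% in CAF-vec and 65.4% in CAF-200, and HoxA 17.8% and 22.6%. In bulk RNA, fewer cells that express a gene and less RNA per cell cannot be told apart.

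Of the 26 HOX genes that passed the filter (0.5 CPM or more in 2 or more samples), 7 were lower and 0 were higher in CAF-200 at an adjusted *p* under 0.05 with limma on log2(CPM + 0.5). The 7 were *Hoxb5*, *Hoxb6*, *Hoxb8*, *Hoxb13*, *Hoxc9*, *Hoxc11* and *Hoxc12*, and no HoxA gene was among them. This was 26.9% of the tested HOX genes, where 18.6% of all 12175 tested genes were lower and 11.9% were higher by the same rule. At the study's thresholds (a log2 fold-change beyond 1 together with an adjusted *p* under 0.01), *Hoxb13* alone was lower and 0 were higher, where 2.35% of all tested genes were lower and 2.37% higher. By unadjusted *p* under 0.05, 10 HOX genes were lower and 1, *Hoxa4*, was higher, where 27.6% and 17.3% of all tested genes were. All 26 reached 0.5 CPM in 2 or more samples of each group, so none had passed the filter through 1 group.

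The values of both groups were apart at 10 HOX genes that were lower in CAF-200 (38.5%, against 37.3% of all tested genes) and at 4 that were higher (15.4%, against 24.3%). The median log2 fold-change of the 26 was -0.16, where that of all tested genes was -0.09. By cluster, the median was 0.08 for the 9 HoxA genes, -0.11 for the 9 HoxB genes and -0.43 for the 8 HoxC genes. By paralog group, none of 8 genes of groups 1 to 4 passed the test (median 0.10). In groups 5 to 8, 3 of 9 genes were lower (median -0.48), and in groups 9 to 13, 4 of 9 (median -0.17), where 18.6% of all tested genes were. The 3 of groups 5 to 8 were all HoxB genes, and the 4 of groups 9 to 13 were 1 HoxB and 3 HoxC genes. With so few genes, paralog group and cluster cannot be told apart. Over all 26 genes paralog number and log2 fold-change had a Spearman's rho of -0.43 (-0.6 in HoxA, -0.45 in HoxB and -0.07 in HoxC), given as a description over neighboring genes of the same libraries. *Hoxb8*, which was lower, stood between *Hoxb7* and *Hoxb9*, whose group means differed by 0.0782% and 2.52%. The CAF-vec samples of these neighbors were far apart, at 51.6 and 40.0 CPM for *Hoxb7* and 68.1 and 95.6 CPM for *Hoxb9*. Without CAF-vec 1 and 2 in turn, the log2 fold-change was 0.192 and -0.171 for *Hoxb7*, and -0.188 and 0.299 for *Hoxb9*. The close means therefore do not show that these neighbors were unchanged. Another scaling moved the balance of all calls from 61.0% lower to 51.5% (quantile normalization) or 48.4% (median centring), and the HOX count was then 6 or 5 lower and 1 higher (*Hoxa4*). The count of 7 of 26 was 12 without CAF-vec 1 (27% of all tested genes were then lower), 8 without CAF-vec 2 (39.7%), and 3, 3 and 1 without CAF-200 1, 2 and 3 (5.74%, 4.71% and 3.96%). The count of 0 higher was 1 without CAF-vec 1 (20.1% of all tested genes were then higher), 7 without CAF-vec 2 (24.9%) and 0 without each CAF-200 sample.

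**Figure D2:**
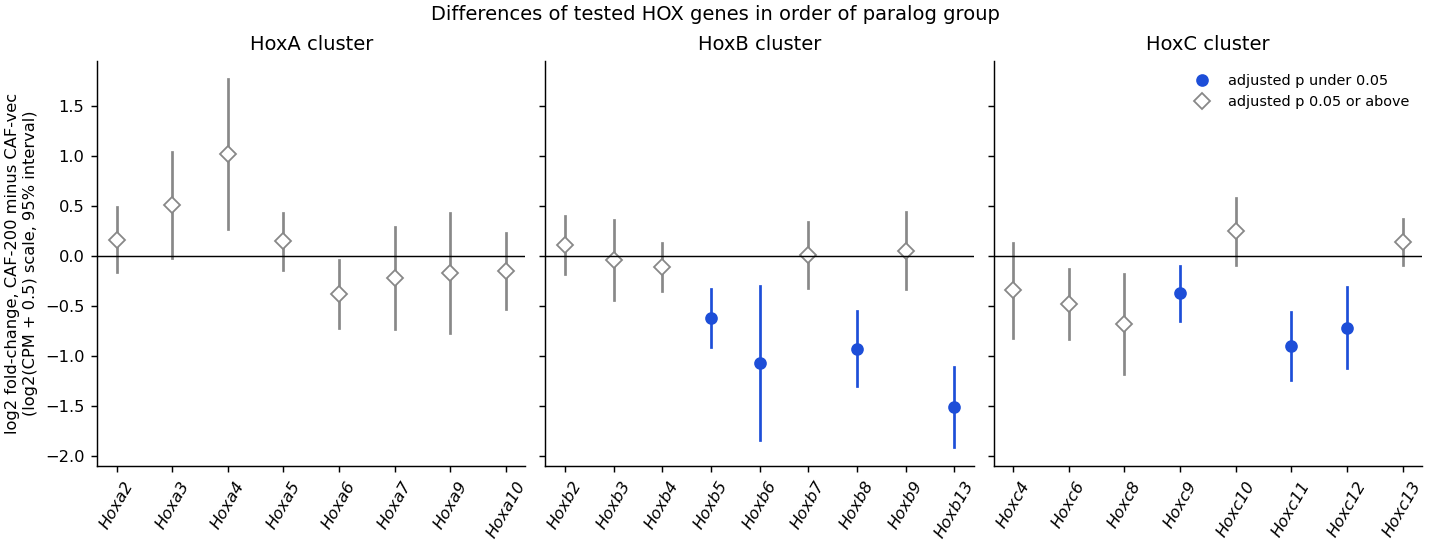
Log2 fold-change of 25 of the 26 tested HOX genes (CAF-200 minus CAF-vec on the log2(CPM + 0.5) scale) with its 95% interval from limma, in order of paralog group within each cluster. Filled circles are genes with an adjusted *p* under 0.05. They are 4 HoxB and 3 HoxC genes, all below 0, and *Hoxb13* lies lowest at -1.51.

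*Hoxb13* (ENSMUSG00000049604, chromosome 11, 96194316 to 96197447, plus strand), the most 5′ gene of HoxB and known from the tail bud and prostate, showed the clearest difference. It had 3.51 and 3.54 CPM in CAF-vec and 1.16, 0.815 and 0.795 CPM in CAF-200. The CAF-vec samples were almost equal and every CAF-200 sample lay below them, with a mean 3.82-fold higher in CAF-vec. The log2 fold-change was -1.51 (SE 0.162, 95% interval -1.91 to -1.11, adjusted *p* = 0.00393, limma). It stayed under an adjusted *p* of 0.05 in each of the 12 alternative settings that tested it (log2 fold-change -1.84 to -1.24), although the adjusted *p* was 0.0225, 0.0298 and 0.032 without CAF-200 1, 2 and 3.

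*Hoxb8* (chromosome 11, 96281905 to 96285315), a regulator of trunk patterning also known from myeloid progenitors, had 81.8 and 58.3 CPM in CAF-vec and 36.0, 36.7 and 35.7 CPM in CAF-200. The CAF-200 samples lay close together below both CAF-vec samples, and the mean fell by 48.4%. CAF-200 samples were close in general, with a median range of 0.141 over all tested genes on the log2(CPM + 0.5) scale. The CAF-vec samples differed by a median of 0.282. *Hoxb8* had a log2 fold-change of -0.93 (SE 0.152, adjusted *p* = 0.0102, limma), and the adjusted *p* was 0.0501, 0.0525 and 0.0588 without CAF-200 1, 2 and 3. *Hoxb6* (chromosome 11, 96292476 to 96301569), another trunk gene, had 71.0 and 33.2 CPM in CAF-vec and 24.6, 20.8 and 23.5 CPM in CAF-200. The groups did not overlap, but the gap between the CAF-vec samples was wider on the log2(CPM + 0.5) scale than at any other tested HOX gene. Its log2 fold-change of -1.07 (SE 0.310, adjusted *p* = 0.0485, limma) became -0.53 without CAF-vec 1 and -1.61 without CAF-vec 2. The adjusted *p* was 0.111, 0.146 and 0.14 without CAF-200 1, 2 and 3.

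*Hoxb5* (chromosome 11, 96303336 to 96306121), which acts in branching of the fetal lung, had 17.2 and 19.9 CPM in CAF-vec and 13, 11.3 and 11.3 CPM in CAF-200. All CAF-200 samples lay below both CAF-vec samples, and the mean fell by 36.0%. The log2 fold-change was -0.62 (SE 0.117, adjusted *p* = 0.0146, limma), with an adjusted *p* of 0.0738 and 0.0773 without CAF-200 2 and 3.

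The other HoxB genes did not pass the test. *Hoxb7*, between *Hoxb6* and *Hoxb8* on the chromosome, had 51.6 and 40.0 CPM in CAF-vec and 46.1, 42.7 and 48.7 CPM in CAF-200 (log2 fold-change 0.01, 95% interval -0.32 to 0.34). *Hoxb9*, on the other side of *Hoxb8*, had 68.1 and 95.6 CPM against 85.7, 80.4 and 85.6 CPM (log2 fold-change 0.06, 95% interval -0.33 to 0.44). For both genes the CAF-200 samples lay within the range of the CAF-vec samples. *Hoxb3* had 36.5 and 52.5 CPM against 40.7, 43.6 and 43.5 CPM, *Hoxb2* had 15.4 and 19.0 CPM against 19.1, 17.7 and 18.6 CPM, and *Hoxb4* had 18.1 and 20.1 CPM against 17.6, 17.0 and 18.4 CPM. These 3 genes of the 3′ side, which act at hindbrain and neck levels, overlapped between the groups, with log2 fold-changes of -0.11 to 0.11. *Hoxb1*, the hindbrain gene at the 3′ end, did not exceed 0.0207 CPM and was not tested.

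**Figure D3:**
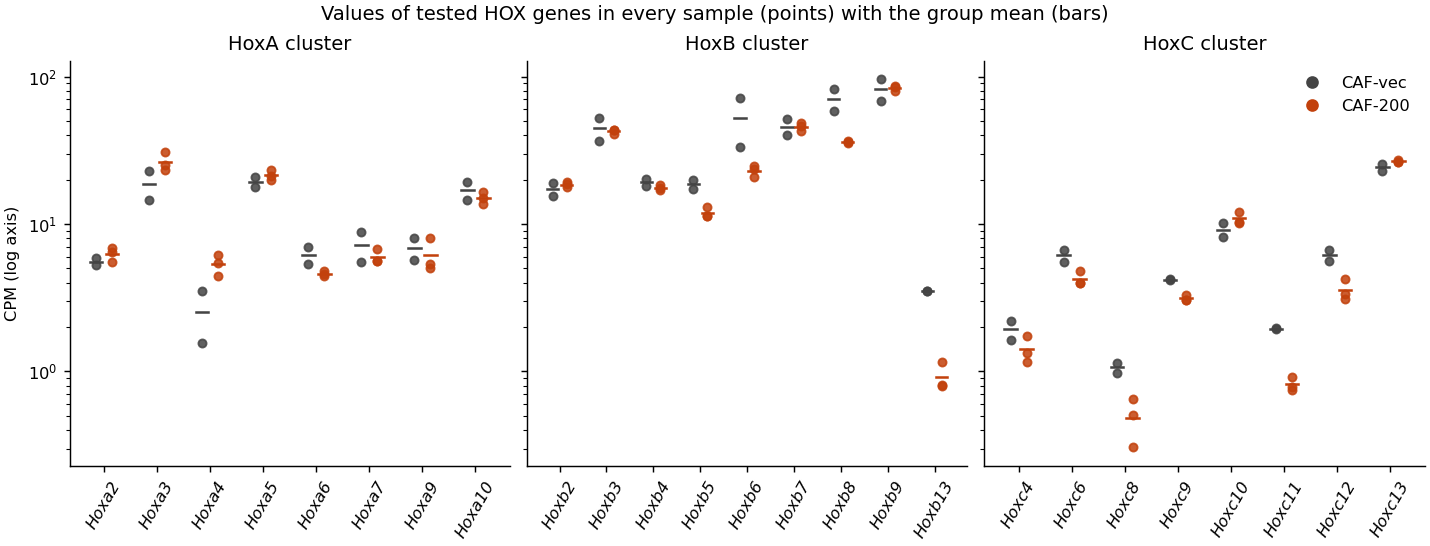
CPM of 25 of the 26 tested HOX genes in each CAF-vec (gray) and CAF-200 (orange) sample on a log axis, with bars at the group means. *Hoxb13* shows 2 CAF-vec points near 3.5 CPM and 3 CAF-200 points between 0.795 and 1.16 CPM, while the points of *Hoxb7* and *Hoxb9* overlap.

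In HoxC, *Hoxc11* and *Hoxc12*, genes of the lower trunk and hindlimb level, were lower in CAF-200. *Hoxc11* (chromosome 15, 102954427 to 102957708) had 1.93 and 1.97 CPM in CAF-vec and 0.781, 0.921 and 0.754 CPM in CAF-200. The groups were far apart for their spread, with a log2 fold-change of -0.90 (SE 0.138, adjusted *p* = 0.00877, limma), and the adjusted *p* was 0.0519 without CAF-200 3. *Hoxc12* (chromosome 15, 102936757 to 102938609) had 6.65 and 5.61 CPM in CAF-vec and 3.08, 4.23 and 3.33 CPM in CAF-200. These too did not overlap (log2 fold-change -0.72, SE 0.163, adjusted *p* = 0.0246, limma), and the adjusted *p* was 0.0897 and 0.102 without CAF-200 1 and 3. *Hoxc9* (chromosome 15, 102976439 to 102985099), a thoracic-level gene, had 4.15 and 4.25 CPM in CAF-vec and 3.28, 3.05 and 3.05 CPM in CAF-200. The difference was small but larger than the spread in either group (log2 fold-change -0.37, SE 0.109, adjusted *p* = 0.0496, limma), and the adjusted *p* was 0.135, 0.174 and 0.168 without CAF-200 1, 2 and 3.

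*Hoxc6* and *Hoxc8*, also of the thoracic level, lay just outside the threshold. *Hoxc6* had 5.53 and 6.71 CPM in CAF-vec and 4.78, 3.97 and 4 CPM in CAF-200 (limma log2 fold-change -0.48, adjusted *p* = 0.0511). *Hoxc8* had 0.981 and 1.15 CPM in CAF-vec and 0.650, 0.503 and 0.305 CPM in CAF-200 (limma log2 fold-change -0.68, adjusted *p* = 0.0513). Both were lower in every CAF-200 sample than in either CAF-vec sample. *Hoxc4*, at the 3′ end, overlapped (1.64 and 2.21 CPM against 1.33, 1.17 and 1.75 CPM). *Hoxc10* had 8.21 and 10.1 CPM in CAF-vec and 12.2, 10.2 and 10.4 CPM in CAF-200, and *Hoxc13* had 22.9 and 25.5 CPM against 26.4, 26.2 and 27.4 CPM. These hindlimb-level and most 5′ genes were higher in every CAF-200 sample, by log2 fold-changes of 0.25 (adjusted *p* = 0.212) and 0.14 (adjusted *p* = 0.277) that did not pass the test. Without CAF-vec 1 these log2 fold-changes were 0.105 and 0.064, and without CAF-vec 2 they were 0.386 and 0.216. *Hoxc5* stayed under the filter, with 0.370 and 0.690 CPM in CAF-vec and 0.201, 0.332 and 0.203 CPM in CAF-200, and shares 166 exon bases on its strand with *Hoxc10*.

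HoxA held the tested member with the largest log2 fold-change above 0. *Hoxa4* (chromosome 6, 52189671 to 52191753, minus strand), a gene of the neck level, had 1.55 and 3.49 CPM in CAF-vec and 6.17, 4.46 and 5.4 CPM in CAF-200. The groups did not overlap, yet the CAF-vec samples differed by 0.96 on the log2(CPM + 0.5) scale from each other, and the log2 fold-change of 1.02 (SE 0.301) had an adjusted *p* of 0.0508 in limma. The log2 fold-change was 0.54 without CAF-vec 1 and 1.497 without CAF-vec 2. Its adjusted *p* in limma was 0.144, 0.102 and 0.153 without CAF-200 1, 2 and 3. *Hoxa3*, its 3′ neighbor and a regulator of pharyngeal organs, had 14.6 and 22.8 CPM in CAF-vec and 25.1, 23.4 and 30.6 CPM in CAF-200 (limma log2 fold-change 0.51, adjusted *p* = 0.123), again without overlap. The *Hoxa3* log2 fold-change was 0.195 without CAF-vec 1 and 0.822 without CAF-vec 2.

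*Hoxa5*, the HOX gene best known from lung mesenchyme, had 20.8 and 17.8 CPM in CAF-vec and 23.1, 19.8 and 21.1 CPM in CAF-200, which overlapped (log2 fold-change 0.15, 95% interval -0.14 to 0.43). *Hoxa2*, a hindbrain gene, had 5.27 and 5.84 CPM in CAF-vec and 6.44, 5.55 and 6.90 CPM in CAF-200, which overlapped too. *Hoxa6* had 6.96 and 5.38 CPM in CAF-vec and 4.41, 4.81 and 4.58 CPM in CAF-200 (limma log2 fold-change -0.38, adjusted *p* = 0.0878). It was the only HoxA gene that was lower in every CAF-200 sample. *Hoxa7*, *Hoxa9* and *Hoxa10*, of trunk and hindlimb levels, overlapped between the groups, at 5.56 to 8.82, 4.99 to 8.04 and 13.7 to 19.3 CPM. At the 5′ end, *Hoxa11* did not exceed 0.111 CPM and *Hoxa13* did not exceed 0.490 CPM, and neither was tested.

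In HoxD, 7 of 9 genes (*Hoxd1*, *Hoxd3*, *Hoxd8*, *Hoxd9*, *Hoxd11*, *Hoxd12* and *Hoxd13*) were listed at 0 in every sample. *Hoxd4* reached 0.0674 CPM and *Hoxd10* 0.0477 CPM in CAF-vec 1, and both were at 0 in CAF-vec 2. In CAF-200 they did not exceed 0.0605 and 0.0404 CPM. No HoxD gene passed the filter, so the cluster that patterns the limb and genital buds was not tested, and the depth behind these zeros is unknown.

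Several HOX genes share exon bases with another gene, which bears on how their reads can be told apart. On the same strand, *Hoxd3* shares 62.3% of its exon bases with *Gm28230* or *Hoxd4*, and *Hoxd4* shares 52.3% with *Gm28230* or *Hoxd3*. *Hoxa2* and *Hoxa3* share 15% and 8.0% with *Gm28308*, and the 7 genes that were lower in CAF-200 share none. On the opposite strand, *Hoxb5* overlaps *Hoxb5os*, *Hoxb2* and *Hoxb3* overlap *Hoxb3os*, and *Hoxa4* overlaps *Gm29430*. The libraries were stranded, but the strand setting used for counting was not given in the sources used here. The 12 HOX cluster non-coding RNAs on the list, such as *Hotair*, were not analysed here.

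Ratios of genes of the same cluster within a sample do not depend on how samples were scaled to each other, and the pairs below were chosen after their values were seen. *Hoxb8* over *Hoxb7* was 1.59 and 1.46 in CAF-vec and 0.782, 0.859 and 0.733 in CAF-200. Both CAF-vec ratios lay above every CAF-200 ratio. The CAF-vec samples differed more for *Hoxb8* over *Hoxb9*, at 1.2 and 0.61 against 0.42, 0.456 and 0.417 in CAF-200. They also did for *Hoxb6* over *Hoxb7*, at 1.38 and 0.831 against 0.535, 0.486 and 0.483. *Hoxb13* over *Hoxb9* was 0.0516 and 0.0370 against 0.0135, 0.0101 and 0.00929. *Hoxc11* over *Hoxc10* was 0.235 and 0.195 against 0.0643, 0.0904 and 0.0725, and *Hoxc12* over *Hoxc13* was 0.290 and 0.220 against 0.117, 0.161 and 0.121. In these pairs the groups did not overlap, and every CAF-200 ratio was the lower. The first gene of each was already among those called lower in CAF-200, so the ratios restate those differences and are no separate support. *Hoxc10* and *Hoxc13* were higher in every CAF-200 sample, so the ratios over them had to separate. *Hoxa4* over *Hoxa5* went the other way, from 0.0747 and 0.196 in CAF-vec to 0.267, 0.225 and 0.256 in CAF-200.

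**Figure D4:**
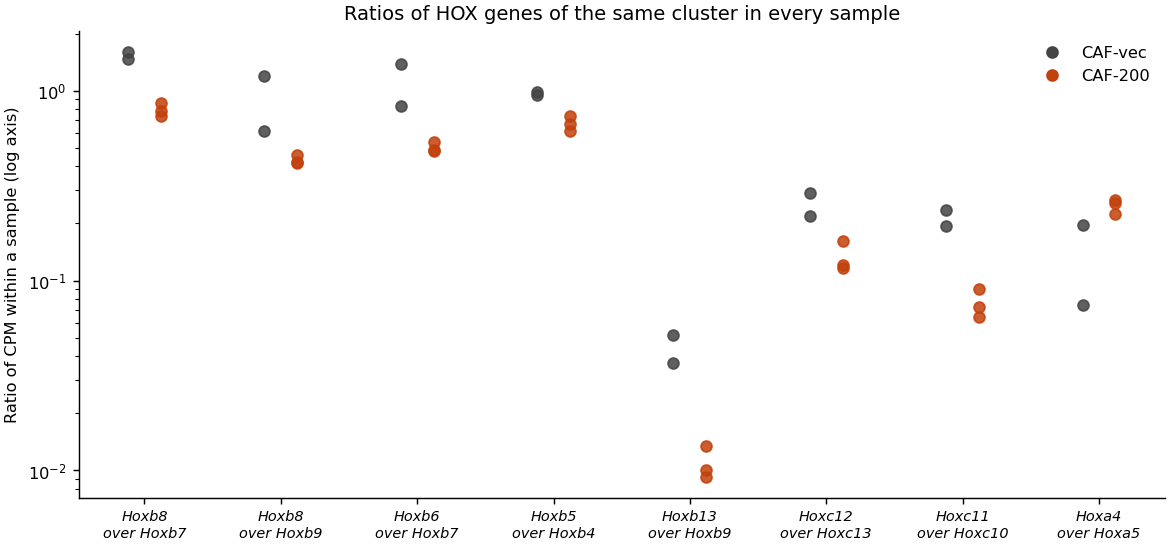
Ratio of the CPM of 2 HOX genes of the same cluster in each CAF-vec (gray) and CAF-200 (orange) sample, on a log axis. The CAF-200 points lie below the CAF-vec points for 7 of 8 pairs and above them for *Hoxa4* over *Hoxa5*. The pairs were chosen after their values were seen.

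Seed matches in the 3′-UTRs were searched because they are the sites through which the overexpressed microRNAs could bind HOX mRNAs. In the longest annotated 3′-UTR of each gene, CAGTATT (miR-200b and miR-429) or CAGTGTT (miR-200a) was found on the mRNA strand in 6 of 26 tested HOX genes (23.1%), where 31.8% of 12096 tested genes with an annotated 3′-UTR had one. *Hoxc9* alone held the miR-200b and miR-429 match, and all 6 (*Hoxa7*, *Hoxb4*, *Hoxb5*, *Hoxc6*, *Hoxc9* and *Hoxc13*) held that of miR-200a. Of the 7 HOX genes that were lower in CAF-200, *Hoxb5* and *Hoxc9* held a match and 5, *Hoxb13*, *Hoxb8*, *Hoxb6*, *Hoxc11* and *Hoxc12*, held none. HOX 3′-UTRs were shorter than those of all tested genes (median 919 against 1352 bases). The median log2 fold-change was -0.29 for the 6 HOX genes with a match and -0.10 for the 20 without, while over all tested genes it was -0.07 with and -0.11 without. Among the 7 that were lower in CAF-200 it was -0.50 for the 2 with a match and -0.93 for the 5 without. The sites of *Hoxb5* and *Hoxc9* are shown beside those of *Hoxb4* and *Hoxc13*, which hold a match and did not pass the test, with the match in capitals in 30 bases of GRCm38, all on the plus strand. They lie at chr11:96305399-96305428, chr15:102984457-102984486, chr15:102984756-102984785, chr11:96320960-96320989 and chr15:102928629-102928658 in the order printed.
Hoxb5, miR-200a: ccccccccaagttgcCAGTGTTtctgaatg
Hoxc9, miR-200b and miR-429: tttcttcagagaagcCAGTATTtgaaaaac
Hoxc9, miR-200a: caggcatgtacagagCAGTGTTcttaaccc
Hoxb4, miR-200a: gactgccagatagcaCAGTGTTttggccac
Hoxc13, miR-200a: tggctcattacaaaaCAGTGTTcttttgaa
A match is a run of letters and does not show that a site is used.

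HOX proteins bind DNA together with cofactors of the PBX, MEIS and PKNOX families. All 10 cofactor genes on the list were tested, of which 2 were lower and 0 higher at an adjusted *p* under 0.05, a share near that of all tested genes (18.6% lower and 11.9% higher), with a median log2 fold-change of 0.02 against -0.09 over all tested genes. *Pbx2* had 36.8 and 31.8 CPM in CAF-vec and 20.9, 22.1 and 22.9 CPM in CAF-200 (log2 fold-change -0.63, SE 0.103, adjusted *p* = 0.0102, limma). Every CAF-200 sample lay below both CAF-vec samples. *Pbx3*, a paralog, had 9.16 and 13.6 CPM against 15.3, 15.7 and 16.2 CPM (limma log2 fold-change 0.48, adjusted *p* = 0.0813), and *Pknox1* 11.6 and 13.6 CPM against 16.6, 16.5 and 15.3 CPM (limma log2 fold-change 0.35, adjusted *p* = 0.0571). Both were higher in every CAF-200 sample without passing the test. *Meis1* (log2 fold-change -0.37), *Meis2* (0.23) and *Meis3* (-0.21) did not pass it. The count of 2 was 0 when any 1 CAF-200 sample was left out, and without CAF-vec 2 there were 4 lower and 4 higher, where 39.7% and 24.9% of all tested genes were.

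Genes of the Polycomb repressive complex 2 (PRC2), which places the silencing H3K27 methylation on unused HOX genes, included its core subunits among those higher in CAF-200. Of 11 tested, 4 were higher and 1 was lower at an adjusted *p* under 0.05, against 11.9% higher and 18.6% lower over all tested genes (median log2 fold-change 0.13). *Ezh2*, the methyltransferase, had 85.1 and 72.5 CPM in CAF-vec and 158, 131 and 150 CPM in CAF-200 (log2 fold-change 0.89, SE 0.123, adjusted *p* = 0.0072, limma). The core subunits *Eed* (0.67, adjusted *p* = 0.0167) and *Suz12* (0.40, adjusted *p* = 0.0177) and the histone-binding subunit *Rbbp7* (0.44, adjusted *p* = 0.0176) were higher as well by log2 fold-change in limma. *Phf1*, an accessory subunit, moved the other way, from 61.6 and 41.0 CPM in CAF-vec to 21.3, 21.3 and 18.9 CPM in CAF-200 (limma log2 fold-change -1.27, adjusted *p* = 0.00771). *Ezh1*, the paralog of *Ezh2*, had 14.1 and 18.8 CPM against 13.9, 12.9 and 13.7 CPM and did not pass (adjusted *p* = 0.196).

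In PRC1, the complex that binds the mark of PRC2, 3 of 16 genes were lower and 0 higher, near the 18.6% of all tested genes that were lower (median log2 fold-change -0.13). They were the chromodomain genes *Cbx8* (log2 fold-change -0.99, adjusted *p* = 0.0411), *Cbx6* (-0.47, adjusted *p* = 0.0132) and *Cbx7* (-0.45, adjusted *p* = 0.0416), in limma. *Cbx8* had 20.6 and 11.1 CPM in CAF-vec and 8.46, 7.50 and 6.35 CPM in CAF-200. Among 11 Trithorax and H3K27 demethylase genes, which act on the activating side, 4 were lower and 0 higher, against the same 18.6% and 11.9% (median log2 fold-change -0.18). *Kdm6b*, a demethylase that removes the PRC2 mark, had 19.6 and 22.6 CPM in CAF-vec and 13.1, 12.9 and 13.3 CPM in CAF-200 (limma log2 fold-change -0.67, adjusted *p* = 0.00835). *Dot1l*, a histone H3 methyltransferase, fell from 52.0 and 53.7 CPM to 37.4, 36.2 and 38.2 CPM (limma log2 fold-change -0.50, adjusted *p* = 0.00974), and the methyltransferase *Kmt2b* (-0.38) and its partner *Men1* (-0.34) were lower by smaller amounts. Over the 38 Polycomb and Trithorax genes 8 were lower and 4 higher, near the shares of all tested genes. Under quantile normalization 5 were lower and 7 higher, where 15.5% and 14.7% of all tested genes were. Leaving out CAF-200 1, 2 or 3 left 2, 1 and 1 lower and 1, 2 and 1 higher, and leaving out CAF-vec 1 or 2 gave 15 and 14 lower and 8 and 8 higher, where 27% and 39.7% of all tested genes were lower and 20.1% and 24.9% higher. Whether these differences bear on the HOX values was not tested.

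Retinoic acid is a classical inducer of 3′ HOX genes, and CDX proteins act on those of the trunk. *Cdx1*, *Cdx2* and *Cdx4* did not pass the filter. *Cyp26b1*, the enzyme that degrades retinoic acid, had 64.1 and 57.3 CPM in CAF-vec and 15.3, 15.7 and 13.6 CPM in CAF-200. It was 4.08-fold higher in CAF-vec by the means (log2 fold-change -1.99, SE 0.107, adjusted *p* = 0.00109, limma), and its 3′-UTR held 2 matches to the seed of miR-200a. *Rarg*, a retinoic acid receptor, had 141 and 125 CPM in CAF-vec and 87.4, 83.4 and 82.4 CPM in CAF-200 (limma log2 fold-change -0.65, adjusted *p* = 0.00771). *Rarb*, itself induced by retinoic acid, had 0.363 and 0.429 CPM in CAF-vec and 0.792, 0.883 and 0.981 CPM in CAF-200. *Rarb* reached the filter level only in CAF-200, so no test is given for it. *Aldh1a1*, a retinaldehyde dehydrogenase that makes retinoic acid, overlapped at 112 to 144 CPM. Of the other 7 genes of this list that passed the filter, 2 were lower and 0 higher, against 18.4% and 11.1% of the 11877 tested genes that reached the filter level in both groups (median log2 fold-change -0.27).

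**Figure D5:**
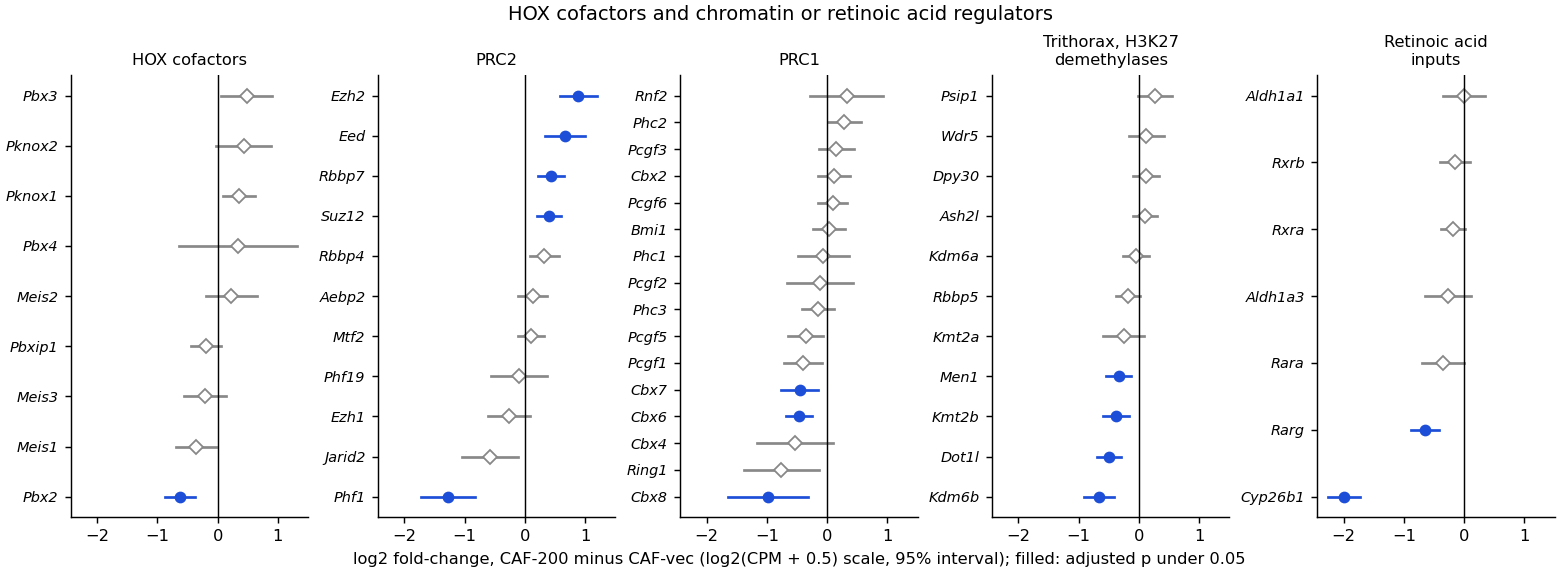
Log2 fold-changes (CAF-200 minus CAF-vec on the log2(CPM + 0.5) scale) with 95% intervals from limma for 9 of the 10 HOX cofactors and for PRC2, PRC1, Trithorax and H3K27 demethylase genes, and retinoic acid inputs that reached 0.5 CPM in both groups. Filled circles have an adjusted *p* under 0.05. *Ezh2* lies highest among PRC2 genes at 0.89 and *Phf1* lowest at -1.27, and *Cyp26b1* lies at -1.99.

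Other transcription factors that mark body position were mixed. Of 20, 14 reached the filter level in both groups, of which 2 were lower and 4 higher at an adjusted *p* under 0.05, against 18.4% and 11.1% of such genes (median log2 fold-change 0.14), and 5 (*Tbx4*, *Tcf21*, *Pitx1*, *Meox2* and *Hand1*) were listed at 0 in every sample. *Tbx4* and *Tcf21* are known from lung mesenchyme, as are *Tbx5* and *Foxf1*, which were present at 7.59 to 10.8 and 23.7 to 37.2 CPM and overlapped between the groups. *Foxd1*, a marker of stromal progenitors, had 6.05 and 3.92 CPM in CAF-vec and 0.951, 0.814 and 0.863 CPM in CAF-200 (log2 fold-change -1.97, SE 0.197, adjusted *p* = 0.00343, limma). *Emx2*, a homeobox gene of the urogenital system and scapula, had 2.92 and 5.42 CPM in CAF-vec and 8.18, 10.9 and 9.33 CPM in CAF-200 (log2 fold-change 1.14, SE 0.257, adjusted *p* = 0.0238, limma). In both genes the groups did not overlap, in opposite directions. *Foxf2*, a mesenchymal forkhead gene (0.55, adjusted *p* = 0.0228), was higher by log2 fold-change in limma, while *Tbx2*, a T-box gene of lung mesenchyme (-0.54, adjusted *p* = 0.0256), was lower. *Tbx18* was higher by 0.46 (adjusted *p* = 0.0199, limma). *Meox1*, a somite homeobox gene, had 1.47 and 0.706 CPM in CAF-vec against 0.331, 0.243 and 0.302 CPM in CAF-200, and reached the filter level only in CAF-vec, so no test is given for it.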

How the data were processed

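RNA sequencing values of 5 samples (2 CAF-vec and 3 CAF-200) were analysed. The authors prepared TruSeq Stranded mRNA libraries and sequenced them as paired ends on an Illumina NovaSeq. The deposited table holds CPM for 21835 genes, normalized by the authors. The submitters' processing notes list FastQC, cutadapt, Trimmomatic, STAR, RSEM and edgeR with the builds GRCm38 and mm10, without versions or roles. Column sums were 999956 to 1000111 CPM. Each of the 3 CAF-200 samples lists 6127 genes at 0, against 7898 in CAF-vec 1 and 7413 in CAF-vec 2. *Hoxb1* was listed as low as 2.324e-05 CPM in CAF-200. The cause was not tested, and the spread between the CAF-200 samples is to be read with this limit. Only 11.0 to 35.5% of low values were whole multiples of the commonest low value within a tolerance of 0.02, so whole reads were not recovered, no count test was run, and sample depths are unknown. The methods describe triplicate RNA, and 2 CAF-vec samples were analysed here.

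Ensembl identifiers were matched to GENCODE M21 (21795 of 21835 named), which gave symbols, positions and merged exon lengths. Values were compared as log2(CPM + 0.5) by linear models in limma 3.58.1 under R 4.3.3, with moderated variances that follow the mean level, for 12175 genes (0.5 CPM or more in 2 or more samples), without covariates, and adjusted over all of them by the Benjamini-Hochberg method. A fold-change on this scale understates that of low genes. Summaries used Python 3.11.15 with pandas 2.3.3. The fit was tested on simulated data. Tested HOX genes were named, with HOX genes not tested but above 0 in at least 2 samples, and, from each other list, up to 6 members with an adjusted *p* under 0.05. A few genes that this rule names are not reported here, though counts include them. Other genes named beside them were chosen after their values were seen. The HOX genes and the other gene lists were chosen with earlier results of these data known. Alternatives covered the pseudocount, the filter, the scaling, the variance trend, the replicate number as a block and each sample left out.

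The replicate numbers appear in both groups, but nothing ties equal numbers to a shared culture or day, and with 2 pairs they were not taken to pair the samples.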

Additional observations from a re-analysis of the deposited data

How the results depend on the processing

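Over 13 alternative settings, the 26 HOX genes gave 335 log2 fold-changes, of which 278 kept their direction and their side of an adjusted *p* of 0.05, 25 lost the call and 21 gained one in the same direction, and 11 changed sign. *Hoxb13* was the single gene past both thresholds, and that count was 0 with at least 1 CPM in every sample (where *Hoxb13* was not tested), 0 with the replicate block, 2 at an adjusted *p* under 0.05 with the same fold, and 0 to 3 with 1 sample left out. The count of HOX genes higher past both thresholds was 0 to 1 with 1 sample left out. The 7 HOX genes lower at an adjusted *p* under 0.05 became 3 with the replicate block (*Hoxb6*, *Hoxb8* and *Hoxb13*) and 1 to 12 with 1 sample left out. The 0 higher became 1 (*Hoxa4*) with a pseudocount of 1, quantile normalization or median centring, and 0 to 7 with 1 sample left out, the 7 without CAF-vec 2, where 24.9% of all tested genes were higher. The median HOX log2 fold-change of -0.16 was -0.083 with quantile normalization, -0.063 with median centring, and -0.253 to -0.085 with 1 sample left out. For the cofactors, 2 lower became 1 with the replicate block, where 7.0% of all tested genes were lower. The 0 higher became 1 with quantile normalization or median centring, where 14.7% and 15.4% of all tested genes were higher. With 1 CAF-200 sample left out, 0 were lower and 0 higher. For Polycomb and Trithorax genes, 8 lower became 5 with quantile normalization, 1 with the replicate block and 1 to 15 with 1 sample left out, and 4 higher became 7 with quantile normalization, 7 with median centring, 1 with the replicate block and 1 to 8 with 1 sample left out.

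With 1 sample left out, the log2 fold-change changed sign at *Hoxa7* (-0.526 without CAF-vec 1, 0.095 without CAF-vec 2), *Hoxa9* (0.06 and -0.394), *Hoxa10* (-0.351 and 0.048), *Hoxb2* (-0.038 and 0.254), *Hoxb3* (-0.3 and 0.219), *Hoxb7* (0.192 and -0.171) and *Hoxb9* (-0.188 and 0.299), in the same order, and also at *Hoxb7* without CAF-200 3 (-0.033). Other sign changes were those of *Hoxb7* with the replicate block (-0.033) and of *Hoxb3* with quantile normalization (0.061) and median centring (0.056). None of these genes had passed the test with all samples, and with 1 CAF-vec sample left out some passed it in limma, namely *Hoxb3* in either direction (adjusted *p* = 0.0145 without CAF-vec 1 and 0.0362 without CAF-vec 2), *Hoxa7* (0.0165) and *Hoxa10* (0.0393) without CAF-vec 1, and *Hoxb2* (0.0362) and *Hoxb9* (0.00737) without CAF-vec 2. *Hoxb6* also lost its call with no filter (adjusted *p* = 0.0791), median centring (0.0502) and no variance trend (0.0541) in limma, and *Hoxc9* with a pseudocount of 0.1 (0.053), no filter (0.0751), quantile normalization (0.0822) and median centring (0.118). The cause was not tested.

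The block uses CAF-vec and CAF-200 1 and 2 alone for the fold-change, since CAF-200 3 has no partner. Deviations from the group means of samples with the same number correlated at 0.249 and 0.134 over genes. It moved the calls over all genes from 2265 lower and 1446 higher to 852 and 630. Without a CAF-vec sample, the lone one is assumed to vary like the CAF-200 samples. edgeR and DESeq2 were not run, since no whole reads were recovered. With 2 CAF-vec samples and unknown depth, small differences of low HOX genes could not be resolved.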

Other observations

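Genes that flank the HOX clusters were read beside them. Of 20 flanking genes listed, 15 were tested, of which 2 were lower and 4 higher at an adjusted *p* under 0.05 in limma, against 18.6% and 11.9% of all tested genes, with a median log2 fold-change of 0.00 (-0.004). *Calcoco1*, beside HoxC and known from autophagy of the endoplasmic reticulum, had 54.3 and 48.6 CPM in CAF-vec and 25.8, 27.8 and 25.3 CPM in CAF-200 (limma log2 fold-change -0.95, adjusted *p* = 0.00343). *Smug1*, a uracil-DNA glycosylase gene near HoxC, was lower as well (-0.77, adjusted *p* = 0.0415), while *Cbx5*, which encodes the heterochromatin protein HP1 alpha in the same region, was higher (0.51, adjusted *p* = 0.0106). On the flanks of HoxD, *Lnpk* (0.52, adjusted *p* = 0.0349) and *Mtx2* (0.38, adjusted *p* = 0.023) were higher although HoxD itself was listed at or near 0. *Jazf1*, on the 5′ side of HoxA, had 1.94 and 2.59 CPM in CAF-vec and 3.80, 4.19 and 3.85 CPM in CAF-200 (0.69, adjusted *p* = 0.0194). The flanking homeobox genes *Evx1* and *Evx2* were listed at 0 in every sample.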
